A study of Mus musculus with 5 samples.

Results

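Th1+TGFb cells were set against rested cells, which are 2 of the 5 CD4 T cell cultures in the series. Both were 8-day cultures, and both began as Th1 cells: naive CD4 T cells from the spleen of C57BL/6 mice were kept for 4 days in the presence of IL-12, IL-2 and antibodies that trigger CD3 and CD28, while IL-4 was blocked. The second step, again of 4 days, was where they parted. Th1+TGFb cells went into iTreg medium, the medium that induces regulatory T cells (Treg cells), which holds TGF-beta, IL-2, the antibodies to CD3 and CD28, and blocking antibodies to IFN-gamma and IL-4. Rested cells were given IL-2 and the same blocking antibodies, without TGF-beta and without the antibodies to CD3 and CD28. Receptor stimulation and TGF-beta therefore changed together, and what each contributed cannot be told apart. The other 3 cultures serve below for levels only. Th1 had the first step alone (4 days). Th1reg were rested cells that spent 4 further days in iTreg medium, 12 days in all. iTreg were naive cells placed in iTreg medium for 4 days. The labels do not say whether the cultures shared mice, or whether the Th1 array came from the culture that gave Th1+TGFb and rested.

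Each culture had 1 array, a 1-colour Agilent mouse array on which Cy3-labelled RNA binds to DNA probes. With 1 array a culture there is no spread between cultures, and no test was made. A level below is the log2 processed signal of a gene's probe minus log2 of the array's 75th percentile of signal. A difference is the Th1+TGFb level minus the rested level, so that 1 is 2-fold. The 75th percentile was 198 on the Th1+TGFb array and 144 on the rested array, and 47.7% of spots were well above background on both. Repeat spots of 1 probe gave an SD of a difference of 0.0969 log2 units (median over probes), and 0.263 where the signal was under 100. That spread is technical, says nothing of how cultures vary, and the number of arrays limits the precision. In bulk RNA, fewer cells of a type and less RNA per cell cannot be told apart.

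The cells carried the markers of CD4 T cells on both arrays. Cd4 stood at 5.56 in Th1+TGFb and 5.67 in rested, and Cd3e at 7.54 in Th1+TGFb and 7.28 in rested. None of the 5 CD4 T cell markers was 2-fold apart. The B cell genes Cd79a and Pax5, the myeloid genes Lyz1, Lyz2, S100a8 and S100a9, the erythroid gene Alas2 and the CD8 gene Cd8a were not well above background on either array. Other markers were: of the 9 B cell markers 4 were well above background in Th1+TGFb and 6 in rested, and of the 9 myeloid markers 4 in Th1+TGFb and 5 in rested. The myeloid probes of Itgam (7.95 in Th1+TGFb and 8.84 in rested) and Csf3r (8.64 in Th1+TGFb and 9.17 in rested) and the dendritic cell probe of Siglech (8.90 in Th1+TGFb and 9.45 in rested) were bright on both. The myeloid markers summed to 648 in Th1+TGFb and 1040 in rested, in units of each array's 75th percentile, the dendritic cell markers to 478 in Th1+TGFb and 700 in rested, and the CD4 T cell markers to 825 in Th1+TGFb and 662 in rested. The myeloid sums rest almost wholly on Itgam and Csf3r, and the dendritic cell sums on Siglech. The dendritic cell genes Flt3, Xcr1 and Clec9a were not well above background on either array. None of the 5 myeloid and 3 dendritic cell markers compared was 2-fold apart, and which RNA these bright probes report was not tested. Foxp3, the defining factor of Treg cells, was not well above background in Th1+TGFb or in rested, while it stood at 4.12 in Th1reg and 5.26 in iTreg.

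Engagement of the T cell receptor with CD28 switches on immediate early transcription factors, and over days it drives nutrient uptake, glycolysis, lipid synthesis and division. When it ends, T cells held in IL-2 slow their cycle, and Foxo factors and Klf2 support genes of quiescence and of homing to lymph nodes. TGF-beta acts through receptor kinases on Smad2 and Smad3, induces Foxp3 in stimulated naive T cells and can restrain the Th1 programme of T-bet (encoded by Tbx21) and IFN-gamma.

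Of 21362 genes with a value, 13123 could be compared, and the other 8239 were dim, which means not well above background, in both. Of those compared, 2307 (17.6%) were at least 2-fold higher in Th1+TGFb and 1160 (8.84%) at least 2-fold lower, together 26.4%. At 4-fold there were 756 higher and 210 lower, and at 16-fold 122 higher and 20 lower. Among the 2-fold genes, 417 higher and 245 lower ones had 1 dim array, and their folds are lower bounds, written as at least N-fold. The median difference of all genes compared was 0.11. The split between higher and lower depended on the scaling. The share that was higher came to 66.5% here, 44.7% when arrays were scaled to the 75th percentile of probes detected on all 5, 56.3% with neither the filter on dim probes nor the floor on dim levels, 79.7% with normexp background correction and the 75th percentile, 60.9% with normexp and quantile normalization, and 95.3% when scaled to spike-ins. Scaling to spike-ins raised the median of all genes by 0.80, and scaling to detected probes moved it by -0.28, so small differences have no fixed direction. The differences below are not shifted by the median of all genes. Counts within a list are to be set beside the 17.6% higher and 8.84% lower of all genes compared.

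**Figure D1:**
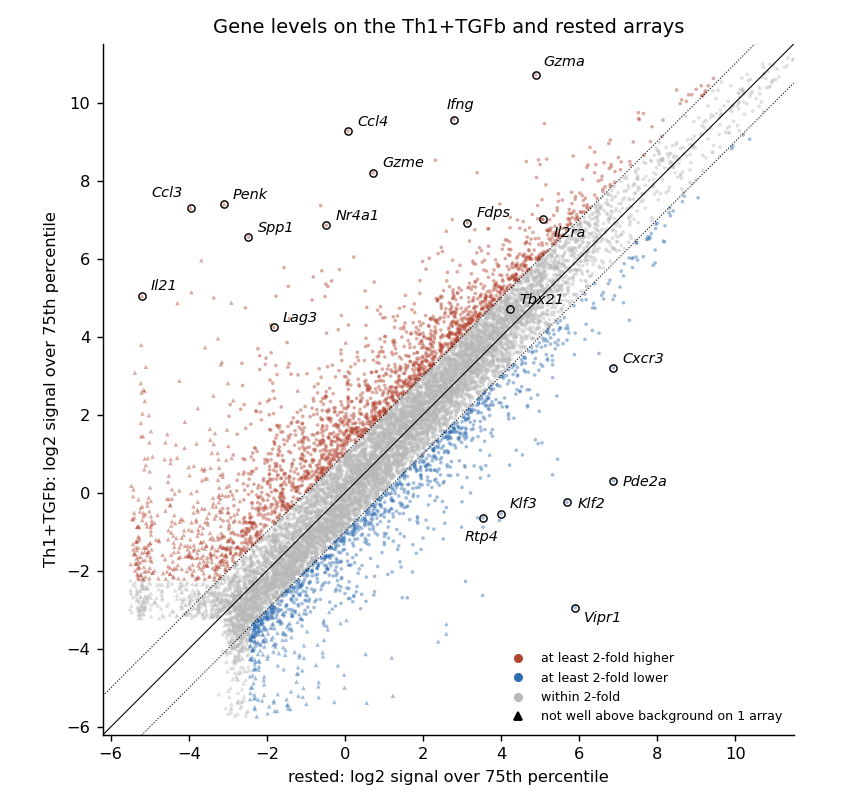
Each point is a gene, at its log2 level on the rested array (horizontal) and on the Th1+TGFb array (vertical). The solid line marks equal levels and the dotted lines 2-fold differences. Triangles were not well above background on 1 of the arrays and are drawn at their measured signal. Gzma, Ifng, Ccl4 and Spp1 lay far above the lines, and Vipr1, Pde2a and Klf2 far below them.

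The 4 marker genes of the cultures were chosen with earlier results of these data known, so their differences are descriptions only. Gzma, which encodes the serine protease granzyme A of cytotoxic granules, had a level of 10.71 in Th1+TGFb and 4.89 in rested, 56.2-fold higher. Ifng, the Th1 cytokine gene, stood at 9.56 in Th1+TGFb and 2.79 in rested, 110-fold higher. Il2ra, the alpha chain of the IL-2 receptor, stood at 7.01 and 5.07 in Th1+TGFb and rested, 3.84-fold higher. Klf2 went the other way, with -0.24 in Th1+TGFb and 5.69 in rested, 60.8-fold lower. The Th1 array lay nearer to Th1+TGFb than to rested for Ifng (10.23), Il2ra (8.03) and Klf2 (0.53). For Gzma it lay at 1.03, below both. Tbx21 differed by 0.49, with 4.71 in Th1+TGFb and 4.23 in rested, and both were below the 6.42 of Th1.

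Early genes of receptor signalling were higher in Th1+TGFb in 21 of 26 compared and lower in 2, with a median difference of 2.15. Nr4a1, an orphan nuclear receptor whose transcription follows receptor signal, had a level of 6.85 in Th1+TGFb and -0.48 in rested, 161-fold higher. The zinc-finger factor Egr2 was 62.3-fold higher (3.32 in Th1+TGFb and -2.64 in rested), and Egr1 at least 124-fold. Dusp4, a phosphatase that turns off MAP kinases, was 40.3-fold higher, with 3.16 in Th1+TGFb and -2.18 in rested. Irf4, Irf8 and Myc, which also follow receptor signal, had differences of 3.65, 3.86 and 1.49. Nfatc1, a calcium-dependent factor, was 2.39-fold lower, and Spry2, an inhibitor of receptor-driven MAP kinase signalling, 2.16-fold lower. Jun (0.26) and Rcan1 (0.05), a target of NFAT, were within 2-fold, and Egr3 and Spry4 were not well above background on either array. Most early genes, but not all, were thus higher in Th1+TGFb, where receptor stimulation and TGF-beta had changed together.

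Costimulatory receptors and ligands were higher more often than lower. Of 18 activation and costimulatory surface genes, 11 were higher and 3 lower, with a median of 1.31. Tnfrsf9 (4-1BB) had 5.29 in Th1+TGFb and -1.45 in rested, a difference of 6.74, and Tnfrsf4 (OX40) 8.41 in Th1+TGFb and 5.0 in rested, a difference of 3.42. The ligand genes Tnfsf11 (RANKL) and Cd70 were 20-fold and at least 18.3-fold higher. Tnfsf11 was not well above background in Th1 (-5.28) and stood at 3.38 in Th1reg and 0.03 in iTreg. The lower genes were Cd27 (3.32-fold), which encodes the receptor for the Cd70 product, Tnfsf8 (CD30 ligand, 3.04-fold) and Cd86 (2.65-fold).

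Chemokine genes held the largest measured difference and the largest lower bound among the genes ranked. Of 16 listed genes 8 could be compared, and 7 of those were higher and none lower, with a median of 8.16 that rests mainly on lower bounds: over the 3 measured on both arrays it was 2.22. Ccl4 stood at 9.27 in Th1+TGFb and 0.08 in rested, 586-fold higher. Ccl3, which like Ccl4 encodes an inflammatory chemokine, had a level of 7.30 in Th1+TGFb, was not well above background in rested and was at least 1470-fold higher. Ccl9 was at least 583-fold higher, Xcl1 at least 302-fold and Ccl1 at least 272-fold. Ccl1 was also not well above background in Th1, while the other arrays from iTreg medium gave 6.87 (Th1reg) and 3.40 (iTreg). Ccl5 was already high in rested, with 9.74 in Th1+TGFb and 7.52 in rested. Cxcl9, an interferon-inducible chemokine, differed by -0.60.

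Of 20 cytokine genes compared, 12 were higher and 2 lower, with a median of 2.23, or 0.82 over the 14 measured on both arrays. Il21 had 5.05 in Th1+TGFb, at least 310-fold above rested, and Il3 had 3.79, at least 129-fold. Tnf (5.40 in Th1+TGFb and 0.75 in rested), Csf2 (2.08 in Th1+TGFb and -2.27 in rested) and Il2 (1.65 in Th1+TGFb and -2.54 in rested) had differences of 4.65, 4.35 and 4.19. Il10, an anti-inflammatory cytokine, stood at 2.03 in Th1+TGFb and was at least 38.3-fold higher than in rested. It was 1.67 in Th1 and not well above background in Th1reg or iTreg. Il16 was 3.61-fold lower and Lif 3.43-fold lower, while the lymphotoxin gene Ltb differed by -0.48. Il4, Il5, Il6, Il9, Il17a and Il17f were not well above background on either array. Il22, a cytokine that acts on epithelium, was at least 7.05-fold higher, and Il13 was well above background in Th1+TGFb alone, with a difference of at least 0.75.

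Cytotoxic granule genes were higher in 16 of 24 and lower in 1, with a median of 2.05. Gzmb, granzyme B, stood at 9.46 in Th1+TGFb and 5.11 in rested, 20.4-fold higher, against 9.50 in Th1. Gzmc had 8.52 in Th1+TGFb and 2.32 in rested (73.8-fold higher), Gzme 8.20 in Th1+TGFb and 0.72 in rested (178-fold), and Gzmd was at least 219-fold higher. Granzymes C to G are near-identical neighbours, so the signal of each is uncertain. The pore-forming gene Prf1 had a difference of 4.19, with 4.75 in Th1+TGFb and 0.56 in rested. Gzmm was 3.65-fold lower, and the proteases Gzmk (-0.44) and Ctsc (0.62) were within 2-fold. Of the genes of granule transport and fusion, Rab27a was 2.14-fold higher, with 2.11 in Th1+TGFb and 1.01 in rested. Unc13d differed by -0.03, Stxbp2 by 0.36 and the granule membrane gene Lamp1 by -0.22. Of the 17 cytotoxic genes that were 2-fold apart, Th1 lay within 2-fold of rested alone for 7, within 2-fold of Th1+TGFb alone for 5 and beyond rested for 2.

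Killer-cell receptor genes, which NK cells and effector T cells use to sense stressed cells or MHC class I, were higher in 11 of 18 and lower in 3. Their median was 1.38, but -0.07 over 24 genes with neither the filter on dim probes nor the floor on dim levels. Klrc1 (NKG2A) had 6.13 in Th1+TGFb and 2.39 in rested, 13.3-fold higher, and its partner Klrd1 (CD94) had a difference of 1.77. Klra5 was at least 146-fold, Klre1 at least 22.5-fold and Klrk1 (NKG2D) at least 13.8-fold higher. Klra1, at 4.74 in Th1+TGFb and 6.35 in rested, was 3.05-fold lower, as was Klrb1f (3.43-fold). The Klra genes are close copies, and the signal of each is uncertain. Beside these 2 groups, the 4 NK cell markers had a summed signal of 6.89 in Th1+TGFb and 3.27 in rested, in units of each array's 75th percentile, with 1 of 2 compared 2-fold higher (Klra8, itself a member of the receptor list). Ncr1 and Klrb1c, which define NK cells in this strain, were not well above background on either array. The CD8 T cell markers summed to 0.279 in Th1+TGFb and 0.644 in rested, with Cd8a not well above background on either and Cd8b1 differing by -1.35.

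**Figure D2:**
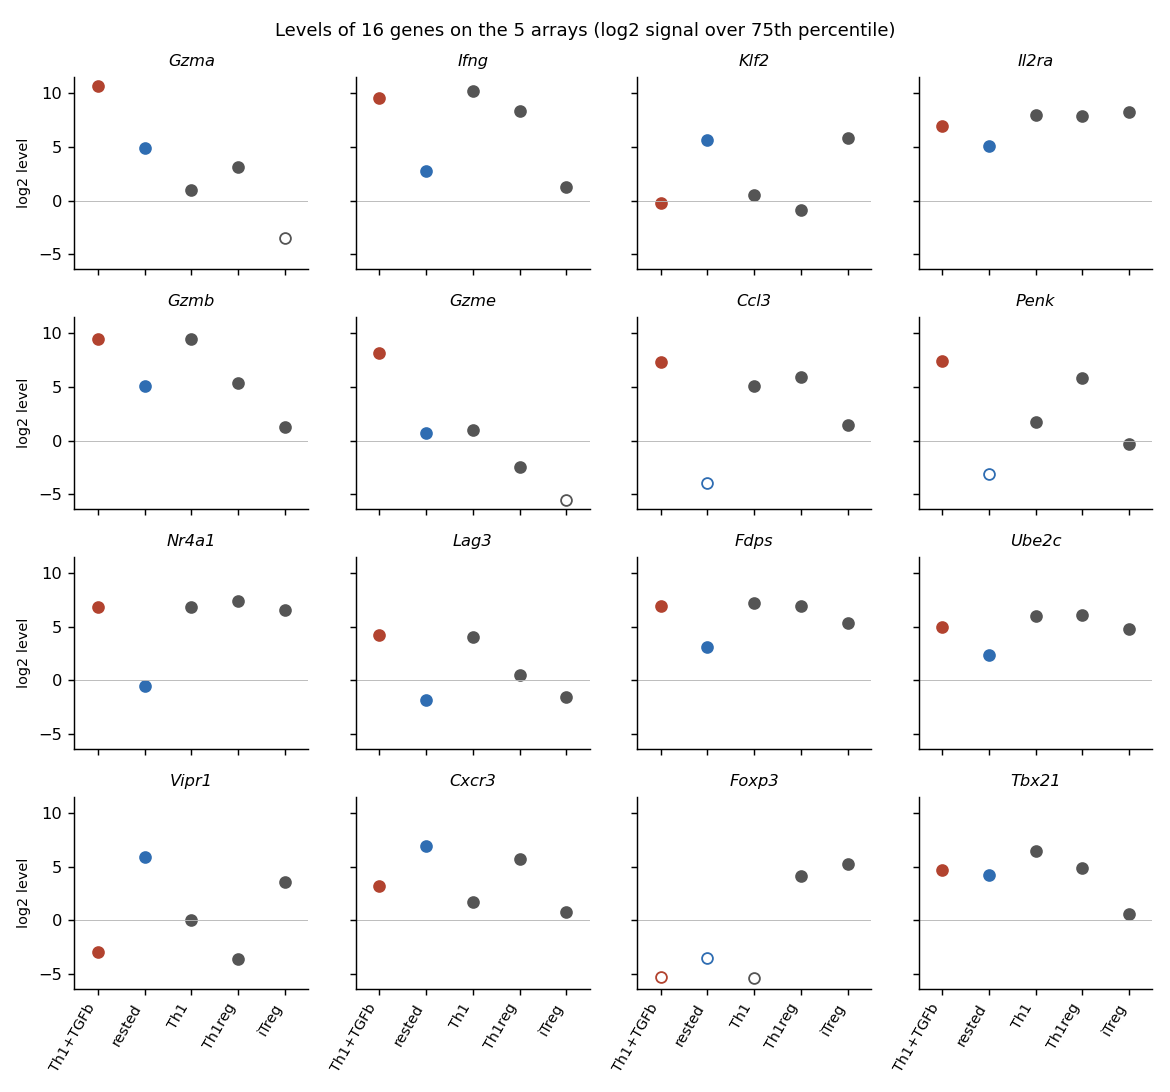
Levels of 16 genes on the 5 arrays, as log2 signal over the array's 75th percentile, with Th1+TGFb in red, rested in blue and the other arrays in grey. Open circles were not well above background. Ifng, Gzmb, Nr4a1, Lag3 and Fdps lay at like levels in Th1+TGFb and Th1 and lower in rested, whereas Gzma and Gzme were highest in Th1+TGFb.

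Quiescence and homing genes formed the main group on the lower side: 21 of 36 were lower in Th1+TGFb and none higher, with a median of -1.31. Vipr1, a receptor for vasoactive intestinal peptide, stood at -2.94 in Th1+TGFb and 5.90 in rested, 458-fold lower. Pde2a, a phosphodiesterase for cyclic nucleotides, was 95.4-fold lower, with 0.31 in Th1+TGFb and 6.88 in rested. Klf3, a relative of Klf2, was 23.3-fold lower, with -0.54 in Th1+TGFb and 4.00 in rested. The exit receptor S1pr1, a known target of Klf2, stood at 1.28 in Th1+TGFb and 5.05 in rested, a difference of -3.77. Tcf7, Lef1 and Foxp1, factors of naive and memory-like T cells, had differences of -2.22, -2.06 and -2.34. Ccr7, a receptor for homing to lymph nodes, was within 2-fold: it stood at 7.67 in Th1+TGFb and 7.42 in rested. Satb1 (0.06), Bcl2 (-0.04), Foxo1 (-0.60) and Il7r (-0.71) were also within 2-fold. For 12 of the 21 lower genes Th1 lay within 2-fold of Th1+TGFb alone, and for 3 within 2-fold of rested alone. Of the GIMAP family, small GTPases of lymphocyte survival, 2 of 8 were lower (Gimap3, 2.14-fold, and Gimap6, 2.02-fold) and none higher, and the median of -0.54 became 0.25 with spike-ins.

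Migration and adhesion genes included higher and lower members. Of 16 chemokine receptors 5 were higher and 3 lower (median 0.40). Cxcr3, the receptor of Th1 cells for interferon-inducible chemokines, was 12.8-fold lower, with 3.20 in Th1+TGFb and 6.88 in rested, and Th1 at 1.69. Ccr8 was at least 7.95-fold higher and stood at 2.72 in Th1reg and 2.11 in iTreg. Cxcr6 was alike (6.33 in Th1+TGFb and 6.00 in rested), although it was 0.93 in Th1. Among 22 integrin and adhesion genes 4 were higher and 7 lower, beside 17.6% higher and 8.84% lower among all genes compared. Their median of -0.20 turned to 0.60 with spike-ins. Itgal and Itgb2, the 2 chains of LFA-1, were 2.55-fold and 2.39-fold higher together. Itgb3 was 7.43-fold lower and its partner Itgav 4.06-fold higher. The costimulatory adhesion receptors Slamf6 and Cd226 were 6.89-fold and at least 7.37-fold lower.

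The Th1 programme was mixed, with 10 of 23 genes higher, 3 lower and a median of 0.54. The IL-12 receptor chain Il12rb1 was 5.03-fold higher (5.25 in Th1+TGFb and 2.92 in rested), and Havcr2 (TIM-3) at least 25.6-fold. The IL-18 receptor chain Il18r1 was 2.95-fold lower, with 3.91 in Th1+TGFb and 5.47 in rested, and Txk, a Tec-family kinase, 3.26-fold lower. Stat4 (-0.93) and Runx3 (0.42) were within 2-fold, as Tbx21 was. Other transcription factors of the list were higher: Hlx by 2.19, Prdm1 by 1.55, Eomes by 1.32, Id2 by 1.17 and Zeb2 by at least 3.65.

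Of 23 Treg genes compared, 15 were higher in Th1+TGFb and 1 lower, with a median of 1.34, while Foxp3 and Gpr83 were not well above background on either array. Several members also belong to the activation list, among them Il2ra, Tnfrsf4 and Tnfrsf18. Penk, the precursor of enkephalin peptides, stood at 7.4 in Th1+TGFb, not well above background in rested, and was at least 1450-fold higher. Ctla4, an inhibitory receptor, was 3.07-fold higher, with 4.37 in Th1+TGFb and 2.76 in rested, and Th1 at 4.51. Nt5e (CD73), which makes adenosine, differed by 2.14 and Ikzf4 (Eos) by 2.69. Ikzf2 (Helios), Nrp1 and Lrrc32 (GARP), which are typical of Treg cells, differed by -0.94, -0.09 and -0.91. The members that were higher and those that were not therefore both included genes typical of Treg cells. Of the Treg genes 2-fold apart, Th1 lay within 2-fold of Th1+TGFb alone for 12 and beyond it for 1. It lay between the 2 arrays for 2 and beyond rested for 1.

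Between Th1+TGFb and rested, Th1+TGFb had TGF-beta in its medium and rested did not. Of 28 genes of its pathway and response, 10 were higher and 4 lower, with a median of 0.20 that turned to -0.26 where only genes measured on both arrays were kept and to -0.08 with scaling to detected probes. Pmepa1, a feedback inhibitor of Smad signalling, stood at 2.07 in Th1+TGFb and -2.16 in rested, 18.9-fold higher. It had a level of -0.06 in Th1, 2.47 in Th1reg and 2.93 in iTreg. Skil, another feedback inhibitor, differed by 1.87, with 1.81 in Th1+TGFb and -0.06 in rested. Serpine2, a protease inhibitor, was 44.8-fold higher, and it was not well above background in iTreg. Smad3, a signal carrier, was 2.79-fold lower (2.39 in Th1+TGFb and 3.87 in rested), and Smad7, an inhibitor that the pathway induces, differed by -0.94. The receptors Tgfbr1 and Tgfbr2 differed by -0.64 and -0.97, and Id3, an inhibitor of E-protein factors, was 3.18-fold lower.

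Inhibitory receptors and ligands were higher in 10 of 19 and lower in 2, with a median of 1.12. Lag3 had 4.24 in Th1+TGFb and -1.82 in rested, 66.6-fold higher, against 4.03 in Th1 and 0.55 in Th1reg. Pdcd1lg2 (PD-L2) was 32.5-fold and Cd200 13.6-fold higher, and Pdcd1 (PD-1) and Cd274 (PD-L1) differed by 2.13 and 2.14. Tox, a factor of chronically stimulated T cells, was 3.63-fold lower, and Btla (-0.22) and Cd5 (0.04) were within 2-fold. Of 12 genes of the Th2, Th17 and follicular helper programmes, 5 were higher and 1 lower. Their median of 0.64 became -0.44 over the 7 measured on both arrays. Ahr, a sensor of aromatic ligands, was at least 17.9-fold higher, with a level of 0.93 in Th1+TGFb. The Th17 cytokine genes Il17a and Il17f were not well above background.

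**Figure D3:**
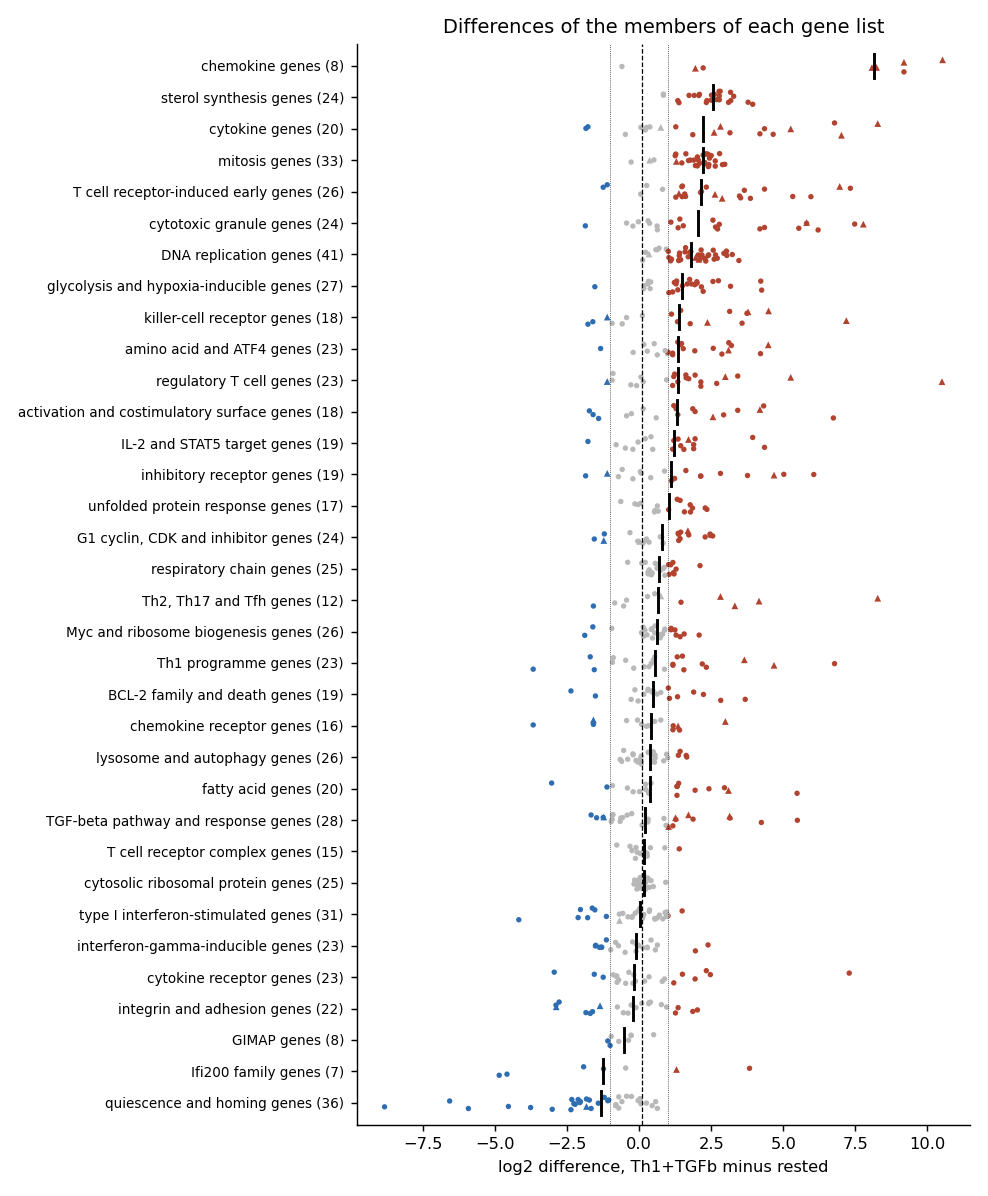
Log2 differences (Th1+TGFb minus rested) of the members of 34 gene lists, ordered by their median (black bar), with the number compared in brackets. Red and blue points were at least 2-fold higher and lower, triangles are lower bounds, dotted lines mark 2-fold and the dashed line the median of all genes compared (0.11). Chemokine and sterol synthesis genes head the plot and quiescence and homing genes end it.

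Genes of division were higher almost throughout. Of 41 DNA replication genes 34 were higher and none lower (median 1.79), and of 33 mitosis genes 30 were higher and none lower (median 2.22). Rfc3, a subunit of the clamp loader, stood at 1.73 in Th1+TGFb and -1.74 in rested, 11-fold higher. The helicase subunit Mcm5 had 4.24 in Th1+TGFb and 1.83 in rested, a difference of 2.41. Ube2c, a ubiquitin-conjugating enzyme of the anaphase-promoting complex, stood at 4.98 in Th1+TGFb and 2.34 in rested (6.24-fold higher), and Cdc20, the activator of that complex, at 5.03 in Th1+TGFb and 2.80 in rested. Bub1, a checkpoint kinase, was 7.83-fold higher. Th1 lay over 2-fold above Th1+TGFb for 28 of the 34 replication genes and 23 of the 30 mitosis genes. For these, Th1+TGFb was between Th1 and rested. The proliferation marker Mki67 stood at 5.11 in Th1+TGFb, 3.34 in rested and 6.65 in Th1. Cdk1 and Aurkb were not well above background on either array.

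Among G1 genes 11 of 24 were higher and 3 lower (median 0.80). The S-phase factors E2f1 and E2f8 were 4.89-fold and 5.52-fold higher. The inhibitors Cdkn1b (p27), Cdkn2a and Cdkn2b were 2.31-fold, 2.95-fold and at least 2.34-fold lower. E2f7 and Cdkn1a differed by 2.55 and 2.47 with the brighter probe and by -0.33 and -0.38 with their second one, so their direction is uncertain.

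The promoters of 4 of these genes are shown because they hold the letters of motifs known from such genes: E2F sites, which time genes of S phase, and the CHR element of late cell cycle genes. They are the 250 bases before the RefSeq start (GRCm38.p6, 5′ to 3′ on the gene's strand), with the matches in capitals. Rfc3 lies on the minus strand at chr5:151651209-151651458, Mcm5 on the plus strand at chr8:75109259-75109508, Ube2c on the plus strand at chr2:164769679-164769928 and Cdc20 on the minus strand at chr4:118437344-118437593.
Rfc3: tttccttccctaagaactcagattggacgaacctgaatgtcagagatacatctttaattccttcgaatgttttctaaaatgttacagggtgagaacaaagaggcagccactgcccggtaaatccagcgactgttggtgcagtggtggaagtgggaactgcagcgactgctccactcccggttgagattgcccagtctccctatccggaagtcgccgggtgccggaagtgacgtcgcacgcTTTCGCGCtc
Mcm5: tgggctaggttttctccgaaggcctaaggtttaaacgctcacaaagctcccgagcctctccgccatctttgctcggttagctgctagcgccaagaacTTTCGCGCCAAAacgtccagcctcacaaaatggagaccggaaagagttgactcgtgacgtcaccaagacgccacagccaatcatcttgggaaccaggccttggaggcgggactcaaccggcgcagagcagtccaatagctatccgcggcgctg
Ube2c: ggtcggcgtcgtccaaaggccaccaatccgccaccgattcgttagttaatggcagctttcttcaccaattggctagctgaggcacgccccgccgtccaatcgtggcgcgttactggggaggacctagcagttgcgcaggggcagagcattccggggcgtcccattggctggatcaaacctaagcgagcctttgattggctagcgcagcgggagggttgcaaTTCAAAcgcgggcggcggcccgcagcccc
Cdc20: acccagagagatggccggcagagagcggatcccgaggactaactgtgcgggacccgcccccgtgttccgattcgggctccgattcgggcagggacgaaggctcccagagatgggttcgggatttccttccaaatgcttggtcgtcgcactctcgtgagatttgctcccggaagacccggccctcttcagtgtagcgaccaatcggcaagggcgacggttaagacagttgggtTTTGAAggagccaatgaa

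Matches were sought on both strands for E2F (TTTCCCGC, TTTGGCGC, TTTCGCGC or TTTGCCGC) and CHR (TTTGAA). The capitals of Mcm5 are 2 E2F matches that overlap, and the CHR match of Ube2c begins 29 bases before the start and reads on the other strand. E2F letters were present in 10 of 34 replication genes with a promoter (29.4%), against 3.62% of the 10498 genes compared that had one and 2.16% of all 27025 genes in the table. CHR letters were present in 10 of 29 mitosis genes (34.5%), against 13.5% of genes compared and 18.3% of all. Over all 2-fold genes the shares were closer to these: E2F letters stood before 5.01% of the higher and 2.28% of the lower genes, and CHR letters before 14.3% of the higher and 14.7% of the lower ones. A match describes the letters and is not evidence of binding.

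Sterol synthesis was the list with the highest median apart from the chemokines: 22 of 24 genes were higher, none lower, and the median was 2.56, ranging between 2.26 and 3.36 over all alternatives. Fdps, farnesyl diphosphate synthase, stood at 6.92 in Th1+TGFb and 3.14 in rested, 13.7-fold higher, and Hsd17b7 was 15.4-fold higher. Hmgcs1, which makes the HMG-CoA that enters the pathway, had 6.76 in Th1+TGFb and 3.66 in rested. Srebf2, which encodes the factor that drives the pathway, differed by 1.38. The remaining 2, Ebp and Acat2, both differed by 0.84. For all 22 the Th1 array lay within 2-fold of Th1+TGFb and not of rested. Mylip, a ubiquitin ligase, and the sterol exporter Abcg1 were 8.21-fold and 2.17-fold lower, while Abca1 differed by 0.33 and Srebf1 by 1.37.

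Hmgcs1 is printed as the 1 sterol synthesis gene, of 17 with a promoter in the table, whose window held the SRE letters TCACNCCAC on either strand (5.88%, against 1.19% of genes compared). Its window lies on the plus strand at chr13:119690101-119690350 (GRCm38.p6, RefSeq), and the match in capitals begins 137 bases before the start.
Hmgcs1: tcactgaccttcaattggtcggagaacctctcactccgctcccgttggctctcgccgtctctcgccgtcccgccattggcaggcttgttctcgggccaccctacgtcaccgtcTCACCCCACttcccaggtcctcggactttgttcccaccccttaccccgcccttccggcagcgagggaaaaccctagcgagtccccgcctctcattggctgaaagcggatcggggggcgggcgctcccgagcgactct

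Of 20 fatty acid genes 9 were higher and 2 lower (median 0.37). Scd1, a desaturase, stood at 3.45 in Th1+TGFb and -2.02 in rested, 44.5-fold higher, and Scd2 was 5.36-fold higher. Acadl, which breaks down long fatty acids, was 7.8-fold higher. Fasn, the synthase, differed by -0.21. Glycolysis and hypoxia-inducible genes were higher in 20 of 27 and lower in 1 (median 1.5). The lactate exporter Slc16a3 had 7.0 in Th1+TGFb and 2.75 in rested (19.1-fold higher), hexokinase Hk2 3.02 in Th1+TGFb and -1.20 in rested (18.6-fold), and Tpi1 was 9.01-fold higher. Pdk1, which keeps pyruvate out of mitochondria, was 2.92-fold lower. Gapdh, often taken as a constant gene, differed by 1.30.

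Amino acid and ATF4 genes were higher in 14 of 23 and lower in 1 (median 1.34). Asns, asparagine synthetase, was 9.17-fold higher, with 5.11 in Th1+TGFb and 1.92 in rested, and Psat1 of serine synthesis 8.66-fold. Trib3, a target and inhibitor of ATF4, was 2.53-fold lower. Genes of the unfolded protein response were higher in 9 of 17 and lower in none (median 1.02), led by Sdf2l1 (5.09-fold) and Xbp1 (4.9-fold). Respiratory chain genes were higher in 8 of 25 and lower in none (median 0.67), with cytochrome c, Cycs, 4.32-fold higher. Of 26 ribosome biogenesis genes 7 were higher and 2 lower (median 0.61). Odc1 was 4.22-fold higher and Rrp12 3.71-fold lower, and the second probe of Ddx21 differed by -0.27 where the first differed by 1.56. All 25 ribosomal protein genes were within 2-fold, between -0.18 and 0.92, and their median of 0.16 lay close to the 0.11 of all genes, and at -0.12 with scaling to detected probes.

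Interferon genes did not move as a set. Of 31 type I interferon-stimulated genes 1 was higher and 7 lower, with a median of 0.02 whose sign changed with scaling (-0.26 with detected probes). Rtp4, a chaperone of receptors, stood at -0.64 in Th1+TGFb and 3.54 in rested, 18.2-fold lower. Ifit3 was 4.13-fold lower (-1.79 in Th1+TGFb and 0.25 in rested), Oasl2 4.36-fold and Oas2 3.46-fold lower. Isg15, a ubiquitin-like protein, went the other way, with 4.36 in Th1+TGFb and 2.86 in rested, 2.81-fold higher. Irf7 (-0.57), Stat2 (0.90) and Bst2 (0.95) were within 2-fold. Of 23 genes that IFN-gamma induces, 2 were higher and 6 lower (median -0.11, but 0.68 with spike-ins). Gbp2 was 5.24-fold and Gbp5 3.87-fold higher, while Gbp6, Gbp9 and Irgm2 were 2.86-fold, 2.52-fold and 2.84-fold lower. IFN-gamma was blocked in both media.

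In the Ifi200 family, sensors of DNA and regulators of transcription, 4 of 7 genes were lower and 2 higher (median -1.24). Ifi208 had 0.46 in Th1+TGFb and 5.32 in rested, 29-fold lower, and Ifi203 0.86 in Th1+TGFb and 5.45 in rested, 24-fold lower. Ifi205 was 14.2-fold and Aim2 at least 2.43-fold higher. These genes lie side by side and resemble each other, so the signal of each is uncertain.

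The promoters of Ifit3 and Isg15 are shown because both hold the ISRE core, AAANNGAAA on either strand, and their genes went opposite ways. Ifit3 lies on the plus strand at chr19:34583279-34583528 and Isg15 on the minus strand at chr4:156200819-156201068 (GRCm38.p6, RefSeq), with the matches in capitals.
Ifit3: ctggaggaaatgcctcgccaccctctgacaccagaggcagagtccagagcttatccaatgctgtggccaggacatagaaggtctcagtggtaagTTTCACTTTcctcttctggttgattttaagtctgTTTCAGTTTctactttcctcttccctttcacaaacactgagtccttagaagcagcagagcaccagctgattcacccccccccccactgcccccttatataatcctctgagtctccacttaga
Isg15: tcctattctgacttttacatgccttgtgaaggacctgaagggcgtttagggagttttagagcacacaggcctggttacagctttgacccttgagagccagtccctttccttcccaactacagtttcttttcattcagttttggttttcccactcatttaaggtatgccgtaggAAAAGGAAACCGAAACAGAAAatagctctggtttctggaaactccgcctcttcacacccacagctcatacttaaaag

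Ifit3 holds 2 matches, which begin 156 and 122 bases before the start, and Isg15 holds 3 that overlap, the nearest beginning 65 bases before it. The letters were present in 13 of 22 type I interferon genes (59.1%), against 9.1% of genes compared, 12.2% of the lower genes and 8.99% of the higher ones. For the early genes, NFAT letters (GGAAAA) were found before 4 of 20 (20%, against 21.7% of genes compared), AP-1 letters (TGANTCA) before 2 (10%, against 5.84%) and CRE letters (TGACGTCA) before 2 (10%, against 3%). SMAD letters (CAGACA) stood before 5 of 18 TGF-beta genes (27.8%, against 16%). An NFAT match can overlap an ISRE core match.

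**Figure D4:**
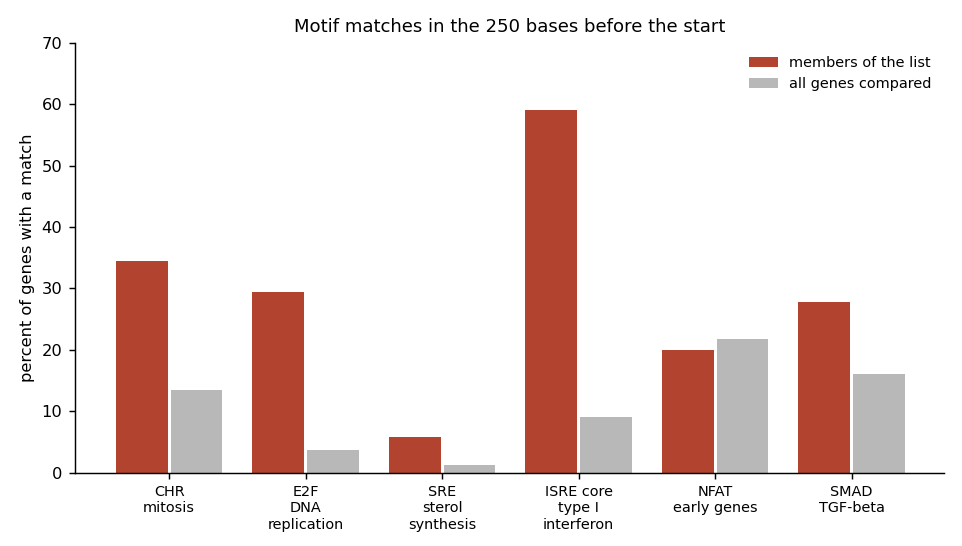
Share of genes (percent, vertical) with a motif match in the 250 bases before the RefSeq start, for the members of a list (red) and for all genes compared (grey). The ISRE core was present before 59.1% of type I interferon genes, E2F letters before 29.4% of DNA replication genes and CHR letters before 34.5% of mitosis genes.

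Cytokine receptor genes were mostly within 2-fold: 6 of 23 were higher and 3 lower, and the median of -0.19 turned to 0.60 with spike-ins. Il1r2, a decoy receptor for IL-1, stood at 4.74 in Th1+TGFb and -2.55 in rested, 157-fold higher, against 0.39 in Th1 and -0.43 in iTreg. Il6ra was 7.71-fold lower (2.48 in Th1+TGFb and 5.43 in rested), with 6.40 in iTreg. The IL-2 and STAT5 targets were higher in 11 of 19 and lower in 1 (median 1.20). Both media held IL-2, and what drove these differences was not tested. Cish, a feedback inhibitor of the IL-2 and STAT5 pathway, was 15.4-fold higher, with 5.93 in Th1+TGFb and 1.99 in rested. Of 19 BCL-2 family and death genes 7 were higher and 2 lower (median 0.48). Bcl2a1d and Bcl2l1, which protect cells, were 12.8-fold and 3.69-fold higher, and so was Pmaip1 (Noxa), which promotes death, at 7.1-fold. Bbc3 (Puma), another promoter of death, was 5.16-fold lower, with 2.95 in Th1+TGFb and 5.32 in rested. Lysosome and autophagy genes were higher in 4 of 26 (median 0.37), and the genes of the T cell receptor complex in 1 of 15 (Thy1, 2.63-fold). For all genes compared the higher share was 17.6%.

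Genes outside the lists were among the largest differences. Spp1, osteopontin, stood at 6.55 in Th1+TGFb and -2.47 in rested, 519-fold higher, against 1.19 in Th1, 4.12 in Th1reg and -2.88 in iTreg. Crabp2, which carries retinoic acid, was 251-fold higher and Tgm2, a transglutaminase that retinoic acid is known to induce, 77.5-fold. Tg, the thyroglobulin gene, was 161-fold higher, Gem, a small GTPase, 112-fold, and Timp1, an inhibitor of metalloproteases, at least 330-fold. Crabp2, Tgm2, Tg and Gem had levels of 7.36, 5.69, 5.77 and 5.04 in Th1+TGFb, and Th1 was within 2-fold of each. On the lower side, Dntt, the DNA polymerase of receptor gene diversity in thymocytes, was at least 62.4-fold lower, with 2.60 in rested, and the sialyltransferase gene St6gal1 was at least 24.9-fold lower. St3gal6, another, was 19.6-fold lower. Nod1, a sensor of bacterial peptides, was 25.5-fold lower, with -0.71 in Th1+TGFb and 3.96 in rested.

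The level on the Th1 array was set beside those of Th1+TGFb and rested. Of the 2307 genes higher in Th1+TGFb, Th1 lay within 2-fold of Th1+TGFb alone for 1362 (59%) and beyond it for 384 (16.6%). For 268 (11.6%) Th1 lay within 2-fold of rested alone, and for 102 (4.42%) it lay between, over 2-fold from each. Of the 1160 lower genes Th1 lay within 2-fold of Th1+TGFb alone for 722 (62.2%), beyond it for 146 (12.6%) and within 2-fold of rested alone for 69 (5.95%). The sterol, glycolysis and inhibitory receptor genes that were 2-fold apart lay mostly with Th1 near Th1+TGFb (22 of 22, 19 of 21 and 10 of 12). The chemokine and killer-cell receptor genes did so in 0 of 7 and 2 of 14. Of the higher genes, Th1reg was within 2-fold of Th1+TGFb alone for 50.3% and of rested alone for 14.2%, and iTreg for 32.3% and 30.4%. Of the lower genes, Th1reg was within 2-fold of Th1+TGFb alone for 53.1% and of rested alone for 8.36%, and iTreg for 41.8% and 20.9%. All these shares set 1 array beside 2 others and use the same Th1+TGFb and rested values, so they are no independent comparison.

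**Figure D5:**
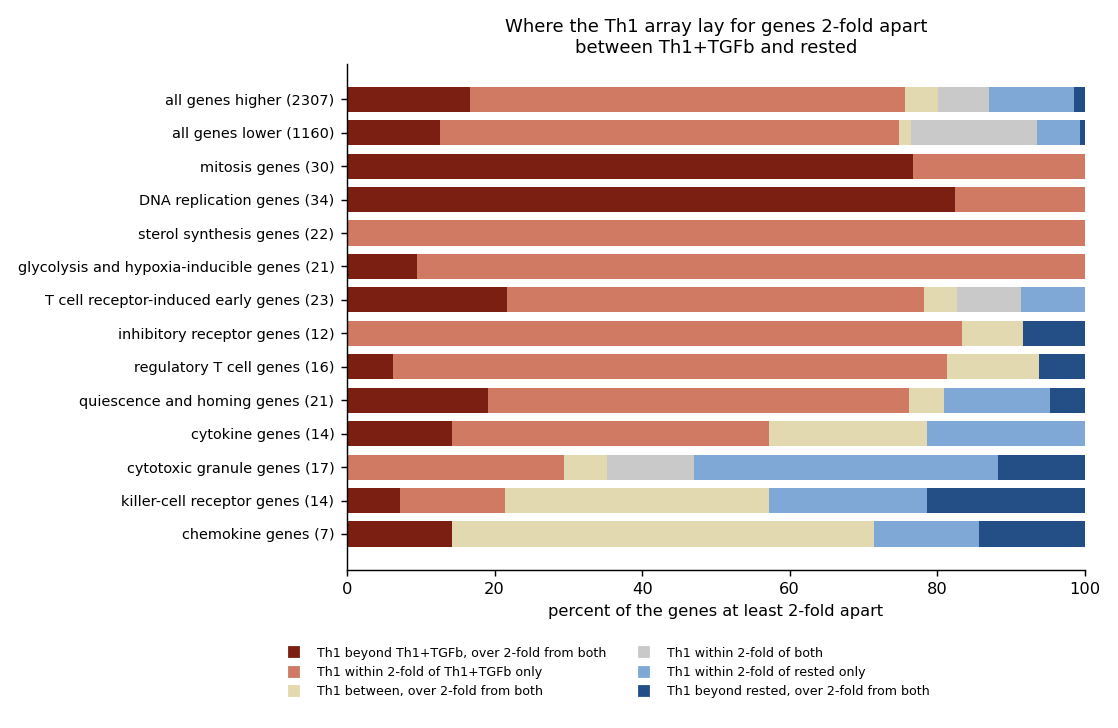
For all genes at least 2-fold higher or lower in Th1+TGFb than in rested, and for the 2-fold members of 12 lists (number in brackets), the share (percent) by where the Th1 array lay, from beyond Th1+TGFb (dark red) to beyond rested (dark blue). Mitosis and DNA replication genes were mostly beyond Th1+TGFb, sterol genes near Th1+TGFb, and cytotoxic genes spread to the rested side.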

How the data were processed

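Total RNA of 5 cultures was labelled with Cy3 and read on 1 Agilent array each (62976 spots, 55681 probes). The deposited scanner files give each spot's intensity after background subtraction and detrending within the array, with Agilent Feature Extraction 10.7.1.1 per the submitters' processing notes. The authors' deposited value table holds the same intensity divided by 1 constant an array: 99.7% of values on both arrays lay within 0.01 log2 units of a constant ratio.

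From these, control and outlier spots were left out, spots of a probe were averaged, and log2 intensity was scaled to each array's 75th percentile, in Python 3.11.15 with numpy 2.4.6, pandas 2.3.3 and matplotlib 3.10.9. Normexp and quantile alternatives used R 4.3.3 and limma 3.58.1. Probes were named through RefSeq (28319 matched, 21362 genes). Of several probes of a gene, the one with the highest mean signal over the 5 arrays stood for it: of 1041 further probes of 2-fold genes, 89.9% had the same direction and 58.6% were 2-fold apart the same way. Where a gene was not well above background on 1 array, the dim level was replaced by the higher of its own level and the lowest level of that array well above background, which gives a lower bound of the fold. No spot was saturated.

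The members, the 34 gene lists (741 genes) and the rules were chosen with earlier results of these data known, so counts of a list are descriptions. Genes were named as follows: Gzma, Ifng, Klf2, Il2ra, Foxp3, Tbx21, Il10 and Ctla4; in each direction, the 12 genes furthest apart among those measured on both arrays and the 8 with the largest bounds; and, of each list, up to 4 members furthest above and up to 4 furthest below at 2-fold. That ranking skipped Xist, Y-linked and predicted genes, and a part of the 186 genes is printed. Other members, including those within 2-fold, were chosen after their values were seen. RefSeq promoters (GRCm38.p6) served for names and letters only, since the array's own coordinates follow an older build. Alternatives changed the scaling, the background correction, the filter, the probe rule, the source of the values and the threshold. Some listed genes are not reported here.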

Additional observations from a re-analysis of the deposited data

Results flagged for a closer look

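Probes that could be matched to no gene lie outside the comparison by genes, and they also carried signal. Of 27351 such probes 11037 could be compared, and 672 (6.09%) were at least 2-fold higher in Th1+TGFb than in rested and 1262 (11.4%) at least 2-fold lower, with a median difference of -0.36. Most are named on the array by genome coordinates only, which is 16190 probes. Of the 5794 of these compared, 189 (3.26%) were higher and 764 (13.2%) lower, with a median of -0.43. With this scaling the higher side was the larger one among genes, and the lower side among these probes. Scaled to the 75th percentile of detected probes, genes also had more on the lower side (1645 higher and 2035 lower). The 75th percentile of raw signal was 0.46 log2 units higher in Th1+TGFb. A probe of equal raw signal on both arrays is therefore placed lower in Th1+TGFb by that amount. The part of scaling in this contrast was not tested. No control sample and no test stands behind these counts, and the transcripts they report were not identified here.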

How the results depend on the processing

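Each setting was set against the 2307 higher and 1160 lower genes, 66.5% of them higher. Scaling to the 75th percentile of detected probes gave 1645 higher and 2035 lower (44.7% higher), and scaling to spike-ins 5960 and 295 (95.3%). Normexp with quantile normalization gave 1439 higher, and normexp with the 75th percentile 484 lower (79.7% higher). With no filter and no floor there were 2168 lower (56.3% higher), and at 4-fold 756 higher and 210 lower (78.3% higher). The median of the killer-cell receptor genes turned to -0.07 with no filter and no floor. The causes of these shifts were not tested. Of 184 named genes 2-fold apart, between 151 (spike-ins) and 184 stayed so under each alternative run on all of them, and none changed direction. Most of these genes were named for the size of their differences on these same arrays, so that count was largely set by the choice. Of 34 lists, 10 had a median that changed sign under some alternative. Of 17 lists with a median of at least 1 in size, between 11 (normexp with quantile normalization) and 17 kept that size. Normexp was run on the spot median, since the files hold no spot mean, and naming by the scanner file was not run, since those files hold no gene name. No paired analysis was possible because each group has 1 array. With 1 array a culture, no difference has a replicate check, and dim genes are the least precise.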

Other observations

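Of 6 B cell markers compared, 1 was at least 2-fold higher in Th1+TGFb and 1 lower. Ebf1, a factor of B cell development, stood at 0.26 in Th1+TGFb and -1.42 in rested. Cd79b, a chain of the B cell receptor, was not well above background in Th1+TGFb and stood at -0.74 in rested. The B cell markers summed to 4.36 in Th1+TGFb and 6.21 in rested, in units of each array's 75th percentile. The part of B cells in any result was not tested.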
